A study of Mus musculus with 13 samples.

Results

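The genes described here are the ligands and receptors of the tumour necrosis factor (TNF) superfamily that carry Tnfsf or Tnfrsf symbols. They were taken by symbol from the 22609 genes listed for visceral fat and for tumours, apart from 2 receptor genes not analysed here, which gave 29 members in each tissue, 11 ligands and 18 receptors. TNF superfamily ligands are mostly membrane proteins that act as trimers and can be shed. Their receptors signal through TRAF adaptors to NF-kappaB or, where they hold a death domain, to cell death, and soluble or truncated receptors act as decoys. In adipose tissue the family is best known for TNF itself, which macrophages of obese fat release and which opposes insulin action, while in tumours several members costimulate T cells or trigger apoptosis.

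RNA came from C57BL/6 mice in 4 groups. Of the visceral fat libraries, all after feeding with HFD (a high-fat diet), 4 came from mice whose label gives a fat-specific loss of PD-L1 (KO) and 3 from wild-type mice (WT). Transplanted E0771 mammary tumours, from a mouse breast cancer cell line, came from KO hosts (3 libraries) and WT hosts (3 libraries). The labels give neither the promoter that drove the deletion nor the age and sex of the hosts, nor the diet of those with tumours. They do not say that each library came from its own animal, so p-values measure the spread between libraries. WT fat libraries are named by their column numbers, 1, 3 and 4.

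The fat libraries held 29362788 to 34926445 gene reads in KO and 32373335 to 41534662 in WT, and the tumour libraries 22834259 to 34706555 (KO hosts) and 29880752 to 31183735 (WT hosts). Cd274, the gene of PD-L1, ran from 521.1 to 563.8 in KO fat and from 504.1 to 738.6 in WT fat (log2 fold change -0.10, SE 0.15, limma adjusted p = 0.66). In the tumours, whose cancer cells come from the transplanted line, Cd274 ran from 1568 to 2414 with KO hosts and from 1391 to 1688 with WT hosts (edgeR adjusted p = 0.717). Neither shows a loss, so directions rest on the labels. Summed adipocyte markers in fat came to 260861 to 407956 in KO and 820440 to 832666 in WT, and those of epithelium in tumours to 8941 to 9692 for KO hosts and 8839 to 10592 for WT hosts. The WT fat libraries carried epididymis and testis transcripts, with a marker sum of 2.16 to 12.1 in KO and 176.1 to 1958 in WT, highest in WT column 4, where the epididymal gene Adam7 reached 1918. In fat, 5 of 6 macrophage markers rose and 0 fell (limma), and their sum was 109711 to 140903 in KO against 18229 to 54872 in WT. Of 5 mast cell markers 4 rose, with sums of 4166 to 15996 in KO and 1089 to 3395 in WT, while all 6 adipocyte and all 5 endothelial markers fell. Of 5 fibroblast markers 2 rose, with sums of 365210 to 512567 in KO and 177623 to 341895 in WT. Among 5 mesothelial markers 3 fell. Among 5 dendritic cell markers 2 fell, Cd209a and Zbtb46, with dendritic sums of 682.8 to 776 in KO and 984.7 to 1422 in WT. The dendritic list was mixed, since Flt3, Xcr1 and Ccr7 had log2 fold changes of 0.09, 0.15 and 0.49 and did not pass. In bulk tissue, fewer cells of a type and less RNA per cell cannot be told apart.

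In visceral fat, 6 of the members with Tnfsf or Tnfrsf symbols rose in KO, 3 ligands and 3 receptors, and no such member fell. Superfamily genes with other symbols, of which Eda and Fas fell, are given further below. The ligands were Tnfsf12, Tnfsf13 and Tnfsf13b, which encode TWEAK, APRIL and BAFF, and the receptors Tnfrsf11a, Tnfrsf1b and Tnfrsf13b, which encode RANK, TNF receptor 2 and TACI. The rises ran from 1.83-fold for Tnfsf13b to 5.15-fold for Tnfrsf11a. Of 27 members tested, 22.2% rose, against 16.8% of all 14455 genes tested, so the share of members was near that of the whole table. By contrast 0 of 27 fell by limma, where 17.4% of all genes did. At an unadjusted p under 0.05 in limma, 8 members were higher and 2 lower, where 22.3% and 23.1% of all genes were. After adjustment, edgeR on recovered reads called 7 members higher and 1 lower, where it called 16.3% and 17.6% of all genes. Among ligands 3 of the 9 tested rose, and among receptors 3 of 18. The median log2 fold change was 0.21 over the members tested and 0.00 over all genes. Tnfsf4 and Tnfsf11 were too low to test. The test was limma on log2(value + 1), with a threshold of 0.05 on p adjusted over all genes (Benjamini-Hochberg). Changes of genes with low values come out too small on such a scale. Values are the authors' reads per gene scaled by library.

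**Figure D1:**
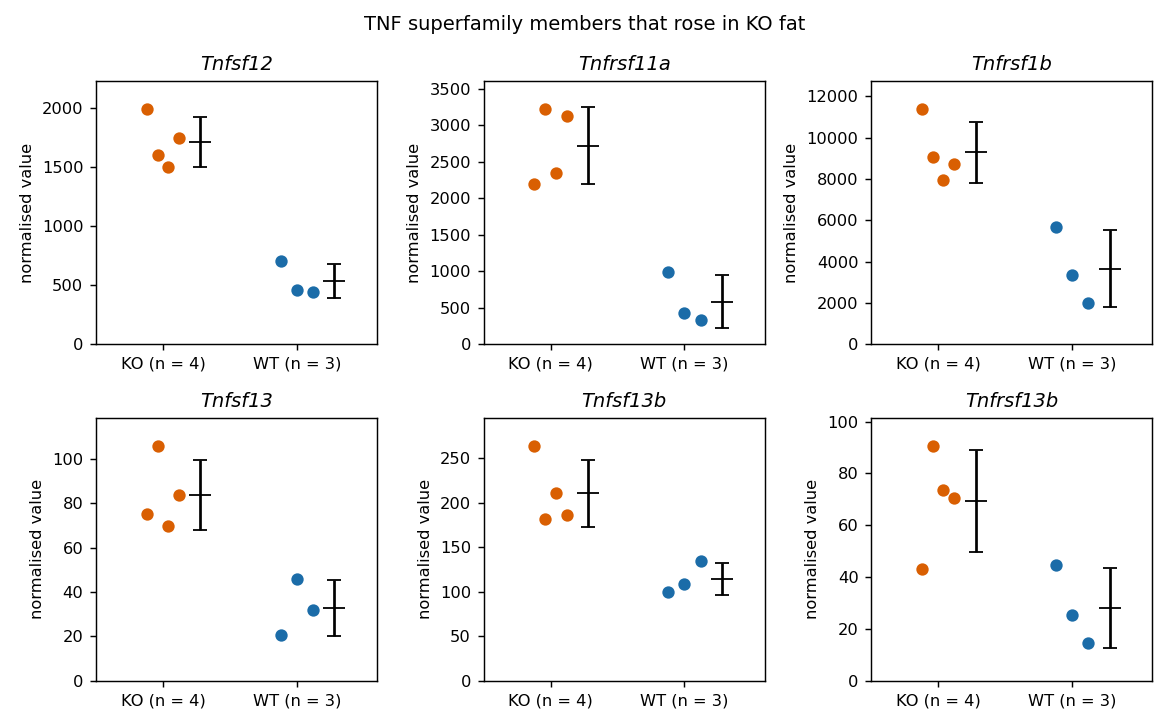
Normalised value in each visceral fat library for the 6 members that rose in KO, with 4 KO libraries (orange) on the left and 3 WT libraries (blue) on the right of each panel. Black marks are the mean and SD, and every axis starts at 0. KO and WT overlap for Tnfrsf13b and for none of the other 5. Of the 27 members tested, 6 stood higher in every KO library than in any WT library, as did 21.6% of all genes tested.

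RANK showed the largest rise. Tnfrsf11a lies on chromosome 1 at 105780718 to 105847981, plus strand (GENCODE M21, GRCm38), and encodes the receptor that RANK ligand uses to drive osteoclast formation from the macrophage lineage. Its normalised values were 2200, 3222, 2348 and 3129 in KO fat, against 995.3, 424.6 and 334.1 in WT fat. The lowest KO library stood above the highest WT library. It rose by 2.36 on the log2 scale (SE 0.34, n = 4 and 3, limma adjusted p = 0.00208), and the two-sided exact permutation p was 0.0286, the smallest that 35 relabellings give. Without any 1 library the log2 fold change stayed between 2.05 and 2.83 and the call held.

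The ligand of RANK was scarce and its decoy went the other way without passing. Tnfsf11, which encodes RANK ligand, had only 5 to 15 reads per fat library, at 8.09 ± 1.84 in KO fat (SD, n = 4) and 10.2 ± 5.29 in WT fat (SD, n = 3), and was not tested. Tnfrsf11b encodes osteoprotegerin, the soluble decoy that binds RANK ligand. Its values were 255.0, 328.0, 189.8 and 210.6 in KO fat, against 553.1, 689.7 and 245.4 in WT fat. WT columns 1 and 3 stood above every KO library and WT column 4 lay among them. Its log2 fold change was -0.91 (SE 0.35), with a limma adjusted p of 0.0755, and the gene passed in edgeR on recovered reads (adjusted p = 0.0486) and in limma without WT column 4 (adjusted p = 0.00638). Per kilobase of exon, the ratio of Tnfrsf11a to Tnfrsf11b was 4.06, 4.63, 5.83 and 7.0 in KO fat, against 0.847, 0.29 and 0.641 in WT fat. RANK transcript thus exceeded that of its decoy in all 4 KO libraries and in 0 of 3 WT libraries, a description with no test.

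The receptors of TNF parted in fat. Tnfrsf1b, chromosome 4 at 145213463 to 145246870 on the minus strand, encodes TNF receptor 2, which lacks a death domain and is most abundant on leukocytes. It had 11374, 9068, 7938 and 8742 in KO fat, against 5657, 3331 and 1972 in WT fat. These groups did not overlap. The rise was 2.76-fold (95% interval 1.68 to 4.53, log2 fold change 1.46, SE 0.31, limma adjusted p = 0.00859). Tnfrsf1a encodes TNF receptor 1, the widely expressed receptor with a death domain. Its values were 9296, 8641, 8736 and 7893 in KO fat, against 9960, 7738 and 7228 in WT fat, and the groups overlapped. The fold was 1.05 (95% interval 0.838 to 1.31, limma adjusted p = 0.74). The ratio of Tnfrsf1b to Tnfrsf1a per kilobase was 0.617 to 0.83 in KO fat and 0.185 to 0.385 in WT fat, and was not tested.

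TWEAK had the smallest p of the family. Tnfsf12, on chromosome 11 at 69686250 to 69695849, minus strand, encodes a ligand that stimulates cell growth and inflammation through the receptor Fn14. Its values were 1987, 1600, 1503 and 1747 in KO fat, against 701.1, 459.8 and 441.3 in WT fat. All 4 KO libraries exceeded every WT library by a wide gap. It rose by 1.70 on the log2 scale (SE 0.18, limma adjusted p = 0.000982), a change that ran from 1.58 to 1.91 without 1 library at a time. Fn14 itself, encoded by Tnfrsf12a, had 911.8, 814.5, 760.9 and 737.7 in KO fat, against 749.3, 561.5 and 350.6 in WT fat. WT column 1 lay within the KO range and the other WT libraries below it. The log2 fold change of Tnfrsf12a was 0.60 (SE 0.24, limma adjusted p = 0.0799), and it passed without WT column 1 (adjusted p = 0.0153).

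APRIL, BAFF and their shared receptor TACI rose together, while the other receptors of this branch did not pass. The branch sustains B cells and plasma cells. Tnfsf13, the APRIL gene (chromosome 11, 69682846 to 69685784, minus strand), had 75.1, 105.7, 69.9 and 83.6 in KO fat, against 20.6, 46.0 and 32.0 in WT fat. Its log2 fold change was 1.37 (SE 0.31, limma adjusted p = 0.0109). Tnfsf12 and Tnfsf13 are neighbours with a fused transcript, so reads may have been divided between them in a way that cannot be checked here. Tnfsf13b, the BAFF gene (chromosome 8, 10006467 to 10039072, plus strand), had 263.8, 182.3, 210.6 and 186.4 in KO fat, against 99.8, 108.6 and 135.1 in WT fat. Its log2 fold change was 0.87 (SE 0.20, limma adjusted p = 0.0115). Neither ligand overlapped between groups, as for 21.6% of all genes tested, which were higher in every KO library.

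Tnfrsf13b, the TACI gene (chromosome 11, 61126755 to 61149372, plus strand), had 43.1, 90.6, 73.5 and 70.5 in KO fat, against 44.7, 25.4 and 14.4 in WT fat. KO replicate 1 lay just under WT column 1, and the other 3 KO libraries stood above all WT libraries. The log2 fold change was 1.36 (SE 0.41, limma adjusted p = 0.0344, two-sided exact permutation p = 0.0857). The call ended without KO replicate 2, 3 or 4 or WT column 3 or 4, with adjusted p up to 0.0933, and without WT column 4 the log2 fold change was 0.97. Tnfrsf13c, which encodes the BAFF receptor of B cells, had 34.9 ± 15.9 in KO fat (SD, n = 4) and 30.9 ± 20.9 in WT fat (SD, n = 3; limma adjusted p = 0.684). Tnfrsf17, the BCMA gene of plasma cells, had 26.5 ± 7.05 in KO and 25.5 ± 3.93 in WT (adjusted p = 0.974). Of 6 B cell markers none passed limma in either direction, also at an unadjusted p under 0.05, with sums of 381.9 to 955.2 in KO and 338.9 to 1051 in WT. Of 4 plasma cell markers 1 rose, Sdc1, and the sums were 7801 to 12754 in KO and 3341 to 5160 in WT. Sdc1 and Jchain weighed most in these sums, with averages of 4433 and 4823 in KO and 1289 and 2412 in WT. Jchain, Mzb1 and Irf4 did not pass, with log2 fold changes of 1.08, 0.75 and -0.37. The part of B cells and plasma cells in the rises was not tested.

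Promoter windows, 250 bases before to 50 bases after a start site, were available from RefSeq (GRCm38.p6) for 22 of the 29 members, in 26 windows. Tnfsf12 had none. For each of the other 5 members that rose, 1 window is shown 5′ to 3′ on the gene's strand, so that those with and without a match can be compared. Capitals mark letters that matched any of 3 motifs, searched on both strands: the kappaB form (GGGA, any 4 bases, then CC), the AP-1 form TGANTCA and the PU.1 form GAGGAAGT. No capitals here belong to more than 1 motif.
Tnfrsf11a, chr1:105780473-105780772, plus strand: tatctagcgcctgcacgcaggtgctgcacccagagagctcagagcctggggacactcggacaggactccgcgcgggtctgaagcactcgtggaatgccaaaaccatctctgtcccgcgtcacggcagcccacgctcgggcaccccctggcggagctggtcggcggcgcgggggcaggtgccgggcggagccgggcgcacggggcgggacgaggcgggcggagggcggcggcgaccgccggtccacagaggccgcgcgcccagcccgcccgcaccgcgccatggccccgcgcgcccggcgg
Tnfrsf1b, chr4:145246821-145247120, minus strand: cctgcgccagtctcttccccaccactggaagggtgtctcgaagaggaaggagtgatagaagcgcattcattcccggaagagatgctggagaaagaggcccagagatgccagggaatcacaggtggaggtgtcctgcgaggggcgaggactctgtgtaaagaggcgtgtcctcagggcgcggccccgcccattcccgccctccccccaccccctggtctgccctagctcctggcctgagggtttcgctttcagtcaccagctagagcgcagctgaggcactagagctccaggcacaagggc
Tnfsf13, chr11:69685505-69685804, minus strand: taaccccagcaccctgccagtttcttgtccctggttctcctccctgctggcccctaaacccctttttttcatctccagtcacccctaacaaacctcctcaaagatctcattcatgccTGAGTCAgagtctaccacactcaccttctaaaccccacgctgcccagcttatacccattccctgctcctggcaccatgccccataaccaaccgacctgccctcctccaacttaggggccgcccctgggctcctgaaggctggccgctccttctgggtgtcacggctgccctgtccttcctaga
Tnfsf13b, chr8:10006383-10006682, plus strand: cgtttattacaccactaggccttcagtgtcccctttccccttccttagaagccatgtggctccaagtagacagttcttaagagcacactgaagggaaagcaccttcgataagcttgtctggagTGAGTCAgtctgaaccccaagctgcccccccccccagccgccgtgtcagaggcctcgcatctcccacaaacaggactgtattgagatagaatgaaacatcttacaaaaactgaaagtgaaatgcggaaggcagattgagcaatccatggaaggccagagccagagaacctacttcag
Tnfrsf13b, chr11:61126505-61126804, plus strand: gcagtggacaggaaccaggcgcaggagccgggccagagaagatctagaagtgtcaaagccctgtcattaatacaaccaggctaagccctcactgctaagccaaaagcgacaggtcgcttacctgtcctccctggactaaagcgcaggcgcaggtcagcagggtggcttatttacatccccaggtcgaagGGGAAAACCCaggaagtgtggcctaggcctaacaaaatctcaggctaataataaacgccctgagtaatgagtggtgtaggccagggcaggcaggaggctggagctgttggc
The APRIL and BAFF windows each held the AP-1 letters TGAGTCA, 133 and 127 bases before the start of their windows' site. The TACI window held the kappaB letters GGGAAAACCC 61 bases before it, and the windows of RANK and TNF receptor 2 matched none of the 3. Over all 32817 windows of this length, 7.81% held the AP-1 form, 20.7% the kappaB form and 3.2% the PU.1 form, against 6, 7 and 1 of the 26 member windows. Both Tnfsf13b windows overlap and share their match. A match is a description of the letters, not a binding site.

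TRAIL, its receptors and the neighbouring receptor genes did not pass in fat by limma. Tnfsf10 encodes TRAIL, which kills through the death receptor gene Tnfrsf10b, and in mice Tnfrsf22 and Tnfrsf23 encode decoys for it. Tnfsf10 had 551.9, 465.0, 832.6 and 691.3 in KO fat, against 632.3, 1429 and 1196 in WT fat. WT column 1 lay within the KO range and the other WT libraries above it. Its log2 fold change was -0.73 (SE 0.30, limma adjusted p = 0.0936), and it passed without WT column 1 (adjusted p = 0.0112). Tnfrsf10b had 220.7 ± 6.25 in KO fat (SD, n = 4) and 316.6 ± 121 in WT fat (SD, n = 3; adjusted p = 0.171), and passed on the lower side without WT column 4 (adjusted p = 0.0413). Tnfrsf22 averaged 137.8 ± 11.1 in KO and 170.0 ± 54.3 in WT, and Tnfrsf23 428.1 ± 69.1 in KO and 323.8 ± 133 in WT, with adjusted p of 0.454 and 0.238. Per kilobase of exon, Tnfrsf23 stood at 2.11 to 3.29 times Tnfrsf10b in KO fat and at 1.11 to 1.79 times in WT fat. Tnfrsf22 stood at 0.743 to 0.907 times Tnfrsf10b in KO fat and at 0.625 to 0.826 times in WT fat, with overlap. Neither ratio was tested. Tnfrsf26, of the same gene cluster on chromosome 7, had 269.3, 214.7, 86.3 and 122.9 in KO fat, against 82.6, 78.3 and 68.1 in WT fat. Its groups did not overlap, but KO replicates 1 and 2 were far above the others. Its log2 fold change was 1.04 (SE 0.38, limma adjusted p = 0.0628), and it passed in edgeR on recovered reads (adjusted p = 0.0465) and without KO replicate 3 (adjusted p = 0.0165). Tnfrsf22, Tnfrsf23 and Tnfrsf26 are related copies, so reads may have been shared between them.

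Ligands and receptors of T cell costimulation, and the remaining members, did not pass in fat by limma. Tnfsf8 and Tnfsf9 encode the ligands of CD30 and 4-1BB. Tnfsf8 averaged 15.1 ± 6.81 in KO fat (SD, n = 4) and 10.5 ± 4.7 in WT fat (SD, n = 3), and Tnfsf9 30.3 ± 5.53 in KO and 21.1 ± 12.2 in WT. Their receptors Tnfrsf8 and Tnfrsf9 averaged 8.57 ± 2.64 and 19.1 ± 3.5 in KO, and 14.9 ± 6.54 and 16.6 ± 4.3 in WT. Tnfsf4, the OX40 ligand gene, had 2 to 9 reads in KO and 1 to 4 in WT, and Tnfsf18, the GITR ligand gene, 8 to 16 reads in KO and 0 to 17 in WT. For Tnfsf18 the 95% interval of the fold ran from 0.534 to 9.69, which includes the 1.83-fold seen for Tnfsf13b. Tnfsf14, which encodes LIGHT, had 45.2 ± 20.7 in KO and 39.3 ± 14.5 in WT, and its receptor gene Tnfrsf14 252.0 ± 56.4 in KO and 235.9 ± 78.3 in WT. Tnfsf15, the TL1A gene, averaged 12.4 ± 3.24 in KO and 11.5 ± 2.83 in WT. Its receptor DR3, encoded by Tnfrsf25, averaged 104.9 ± 17.7 in KO and 145.1 ± 33.1 in WT. Tnfrsf21, the death receptor 6 gene, averaged 1668 ± 150 in KO and 1531 ± 626 in WT, and Tnfrsf19, the TROY gene, 18.8 ± 7.16 in KO and 26 ± 6.99 in WT. Adjusted p in limma was between 0.163 and 0.879 for the members of this group that were tested.

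**Figure D2:**
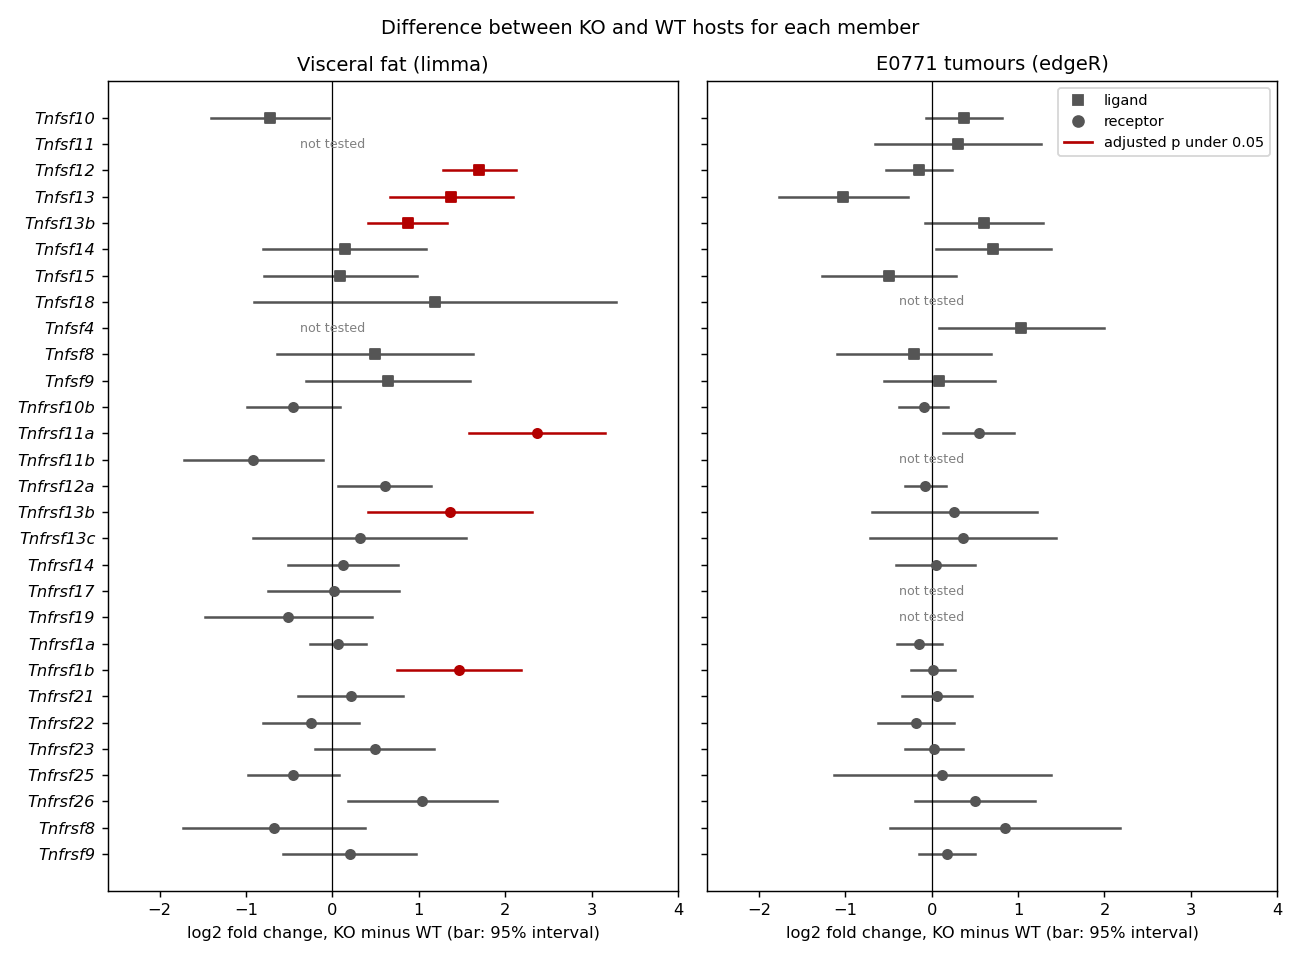
Log2 fold change, KO minus WT, with its 95% interval for each member in visceral fat (left, limma) and in E0771 tumours (right, edgeR). Squares are ligands, circles receptors, and red marks an adjusted p under 0.05. The 6 red intervals are all in fat and above 0.

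The members that rose were set beside the macrophage markers, since those moved with them. This ratio was chosen after the values were seen and is a description with no test. It depends on the markers summed, which rose unequally. Their log2 fold changes included 0.61 for Mertk, which did not pass (limma adjusted p = 0.0832), and 1.41 for Csf1r. Those of Adgre1 and Cd68 were 2.66 and 2.89. Cd68 averaged 36432 in KO and 6457 in WT, and Csf1r 33508 in KO and 13407 in WT. Ratios to single markers were not computed. Per 1000 of the summed value of the 6 markers, Tnfrsf1b stood at 89.0, 64.4, 72.4 and 69.4 in KO fat, against 103.1, 113.4 and 108.2 in WT fat, lower in every KO library. Tnfrsf13b likewise stood at 0.337 to 0.67 in KO and 0.792 to 0.866 in WT. Tnfrsf11a stood at 17.2, 22.9, 21.4 and 24.8 in KO, against 18.1, 14.4 and 18.3 in WT. For RANK the highest 3 of 4 KO libraries were above all WT libraries, and KO replicate 1 lay among them. Tnfsf12 stood at 11.4 to 15.6 in KO and 12.8 to 24.2 in WT, Tnfsf13 at 0.588 to 0.75 in KO and 0.376 to 1.75 in WT, and Tnfsf13b at 1.29 to 2.07 in KO and 1.82 to 7.41 in WT. The 3 ligands overlapped between groups on this scale. The part of macrophages, mast cells and fibroblasts in the rises was not tested.

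**Figure D3:**
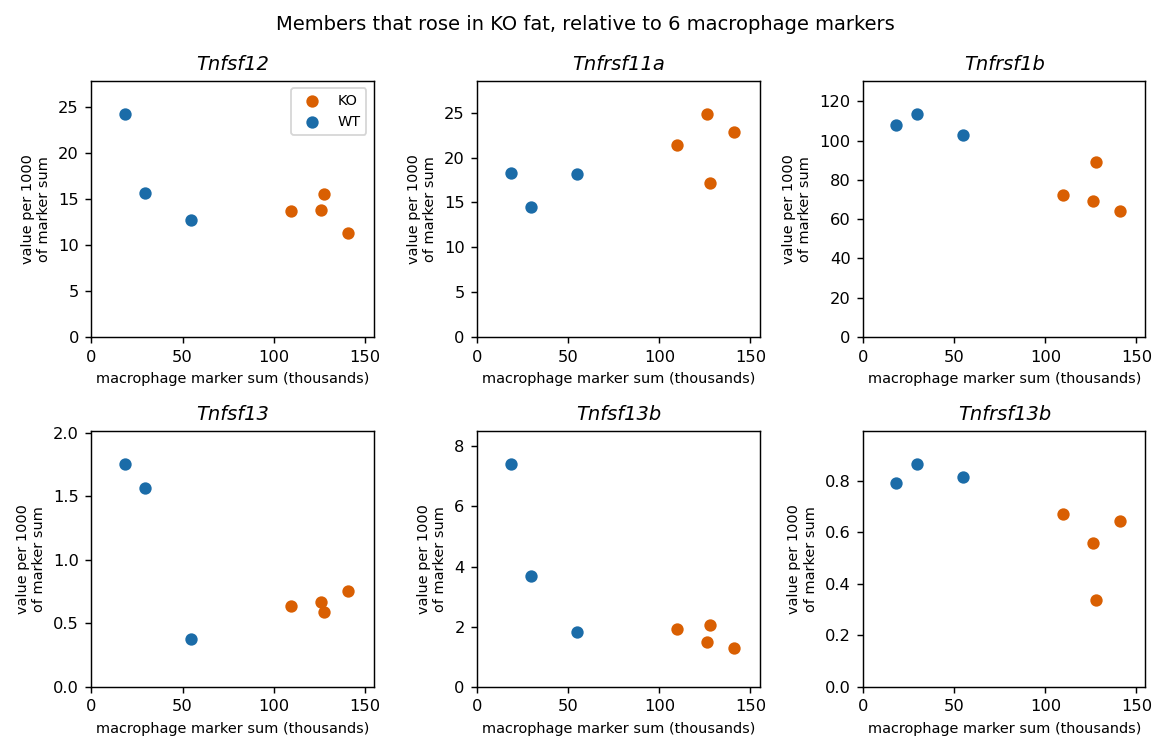
Value of each member that rose in KO fat per 1000 of the summed value of 6 macrophage markers (vertical axis), against that sum (horizontal axis, divided by 1000), in 4 KO (orange) and 3 WT (blue) libraries. Tnfrsf1b and Tnfrsf13b are lower in every KO library than in every WT library, and Tnfrsf11a is not. The sum on the horizontal axis is also the divisor of the vertical axis, so a slope in a panel is not a result.

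Superfamily genes with other symbols were mixed in fat, where 16.8% of all genes rose and 17.4% fell. Of 5 ligands tested, 1 rose and 1 fell. Tnf, the founding cytokine, rose to 126.3 ± 16.02 in KO fat (SD, n = 4), against 52.3 ± 31.8 in WT fat (SD, n = 3), by 1.48 on the log2 scale (SE 0.45, limma adjusted p = 0.0331). That call ended without any 1 of the 4 KO libraries or WT column 3, with adjusted p up to 0.0745, and without WT column 4 the log2 fold change was 0.87. Eda, the ectodysplasin gene, fell to 238.6 ± 33.2 in KO, against 440.9 ± 96.0 in WT fat, a log2 fold change of -0.87 (SE 0.19, limma adjusted p = 0.00951). Of 7 receptors tested, 1 rose and 1 fell. Cd40, a costimulatory receptor of antigen-presenting cells, rose to 274.2 ± 62.5 in KO fat, against 135.9 ± 15.1 in WT fat (limma adjusted p = 0.00869). Fas, the death receptor of Fas ligand, fell to 864.8 ± 105 in KO, against 1639 ± 206 in WT fat (limma adjusted p = 0.00224, log2 fold change -0.92). Ltbr, the lymphotoxin beta receptor gene, had 3245 ± 197 in KO and 3846 ± 562 in WT (adjusted p = 0.171). Of 30 genes for adaptors and NF-kappaB signalling, 7 rose and 0 fell by limma, also at an unadjusted p under 0.05 on the lower side, to be read against the same 16.8% and 17.4% of all genes. The median log2 fold change was 0.12. The rises of smallest p were the deubiquitinase gene Fam105b (Otulin), the kinase gene Ikbkb, the adaptor gene Traf5 and the apoptosis inhibitor gene Birc3, with log2 fold changes of 0.82, 0.50, 0.87 and 0.61. The call of Ikbkb ended without WT column 3 (adjusted p = 0.0595).

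Levels per kilobase of exon were computed for the 29 members and not for superfamily genes with other symbols. Within fat, Tnfrsf1a had the highest level of these members, at a mean of 3335 in KO and 3207 in WT. Tnfrsf1b came next at 2431 in KO and 956.9 in WT. Tnfsf12, the ligand with the highest level, stood at 1128 in KO and 352.5 in WT, and Tnfrsf21 at 405.9 in KO and 372.6 in WT, so that Tnfsf12 followed Tnfrsf1b in KO and Tnfrsf21 did in WT. Tnfrsf11a stood at 455.3 in KO and 97.7 in WT. In the tumours the member with the highest level per kilobase was Tnfrsf1a, at 3092 in KO hosts and 3414 in WT hosts. Next came Tnfrsf1b, at 2488 for KO hosts and 2470 for WT hosts, and Tnfrsf12a, at 2280 in KO hosts and 2399 in WT hosts. The 4-1BB gene Tnfrsf9 followed with 903.7 in KO hosts and 799.6 in WT hosts. Its reads ran from 1868 to 2944 per tumour and from 14 to 22 per fat library, but the tissues were normalised separately and no level was tested across them. Tnfrsf11b, Tnfrsf17, Tnfrsf19 and Tnfsf18 had 0 to 11 reads per tumour and were not tested.

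**Figure D4:**
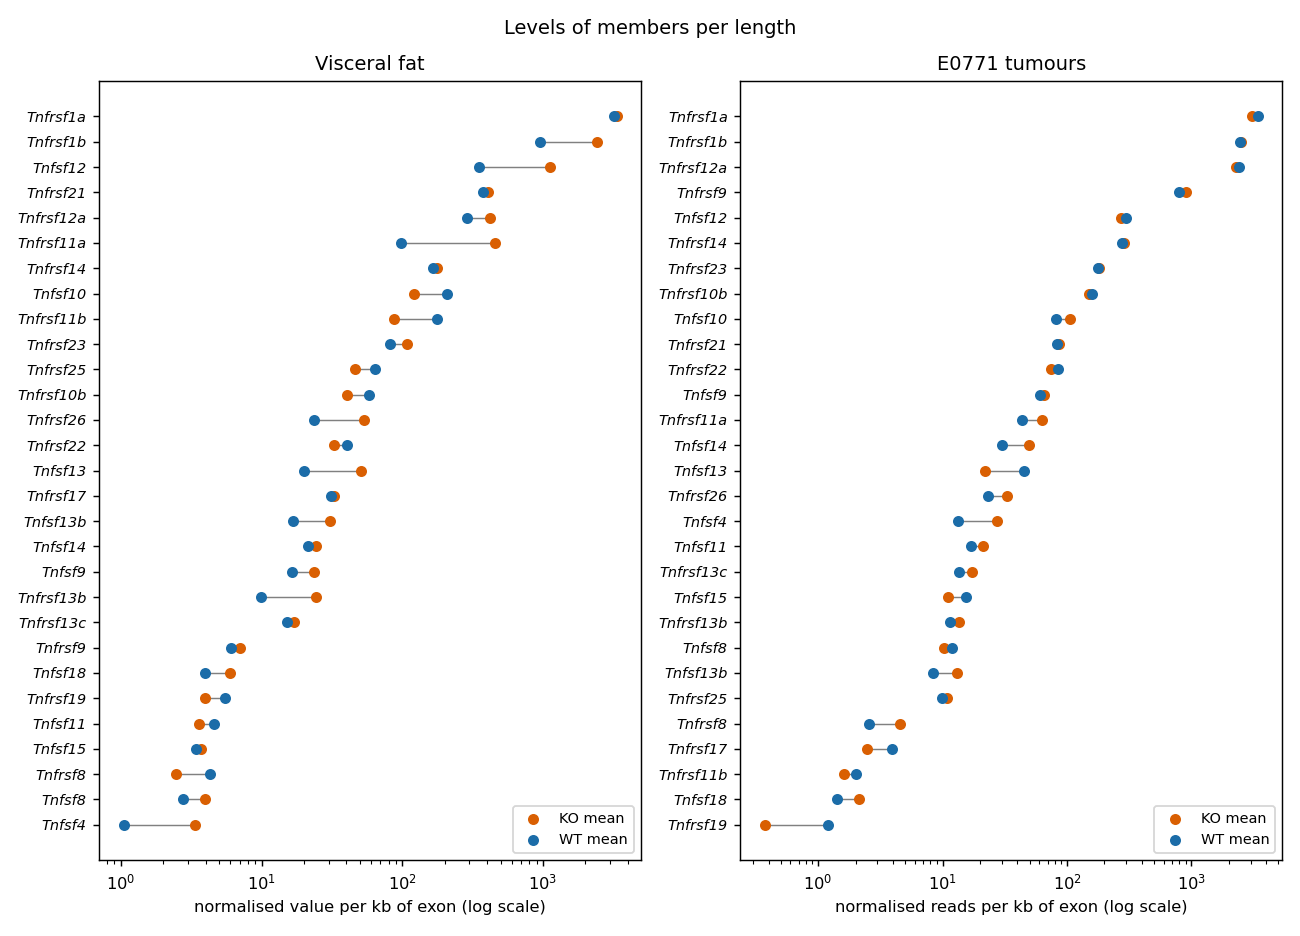
Mean level of each of the 29 members per kilobase of exon on a log scale, in visceral fat (left) and E0771 tumours (right), for KO (orange) and WT (blue), ranked within each tissue. Tnfrsf1a is highest in both tissues, and KO and WT lie far apart for Tnfrsf11a in fat.

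In the tumours no member passed. The members of smallest p with higher averages in KO hosts were Tnfrsf11a, Tnfsf4 and Tnfsf14, and those with lower averages Tnfsf13, Tnfsf15 and Tnfrsf1a. Of 25 members tested, edgeR called 0 higher and 0 lower, as it did for 0% of all 13109 genes in either direction. At an unadjusted p under 0.05, 3 members were higher and 1 lower, where 3.79% and 3.11% of all genes were. DESeq2 also called 0 members, where it called 0.378% of all genes higher and 0.0966% lower, and its smallest adjusted p for a member was 0.372. At an unadjusted p under 0.05 DESeq2 had 3 members higher and 1 lower, against 3.07% and 2.83% of all genes. The median log2 fold change was 0.09 over the members and 0.00 over all genes. In each tumour comparison of 3 against 3 libraries, an exact permutation p cannot go below 0.1.

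RANK was again on the higher side. Its effect in fat exceeded that in tumours by 1.80 on the log2 scale (limma adjusted p = 0.0115). Of the 23 members tested in both tissues, 4 had effects that differed between them, a share near the 18.7% of all genes. Tnfrsf11a had 399.7, 396.2 and 344.7 normalised reads in tumours of KO hosts, against 251.2, 215.8 and 313.3 in those of WT hosts. All KO values exceeded all WT values. In tumours its log2 fold change was 0.55 (SE 0.19, edgeR adjusted p = 0.646, unadjusted 0.0134). Tnfsf4, the OX40 ligand gene, had 53.1, 51.0 and 47.2 in KO hosts, against 14.8, 38.2 and 20.4 in WT hosts, and differed by 1.04 on the log2 scale (SE 0.44, edgeR adjusted p = 0.709). Tnfsf14, the LIGHT gene, had 73.4, 109.6 and 92.1 in KO hosts, against 50.2, 52.5 and 64.1 in WT hosts (log2 fold change 0.71, SE 0.30, adjusted p = 0.709). Neither overlapped between groups. Over all genes tested, 5.68% were higher in every KO tumour and 4.92% lower, and among the 25 members 4 were higher and 2 lower.

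APRIL was on the lower side in tumours. Tnfsf13 had 39.6, 30.6 and 38.2 normalised reads in KO hosts, against 72.9, 87.8 and 60.4 in WT hosts. No KO tumour reached the lowest WT tumour. Its log2 fold change was -1.02 (SE 0.34, edgeR adjusted p = 0.627), on 24 to 47 reads in KO hosts, against 65 to 92 in WT hosts. Tnfsf15 had 34.6, 34.4 and 41.5 in KO hosts, against 48.3, 61.1 and 46.5 in WT hosts, without overlap (log2 fold change -0.50, SE 0.35, adjusted p = 0.821). Tnfrsf1a had 8841, 7030 and 8165 in KO hosts, against 9454, 8701 and 8383 in WT hosts, with overlap (log2 fold change -0.14, SE 0.12, adjusted p = 0.851). BAFF, encoded by Tnfsf13b, had 88.9 ± 23.0 in tumours of KO hosts and 58.0 ± 5.02 in those of WT hosts (SD, n = 3 each; edgeR adjusted p = 0.757). The costimulatory receptor gene Tnfrsf9 had 2460 ± 352 in tumours of KO hosts and 2176 ± 323 in those of WT hosts (adjusted p = 0.855). For Tnfrsf1b the fold was 1.01 (95% interval 0.844 to 1.2), and for Tnfrsf12a 0.95 (95% interval 0.806 to 1.121). TWEAK, encoded by Tnfsf12, stood at 408.1 ± 59 with KO hosts and 452.7 ± 61.1 with WT hosts (adjusted p = 0.892), and RANK ligand, encoded by Tnfsf11, at 47.0 ± 11.4 with KO hosts and 37.9 ± 18.8 with WT hosts (adjusted p = 0.916). The 10 ligands tested in tumours had log2 fold changes from -1.02 to 1.04. The 15 receptors tested in tumours had log2 fold changes from -0.19 to 0.85.

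**Figure D5:**
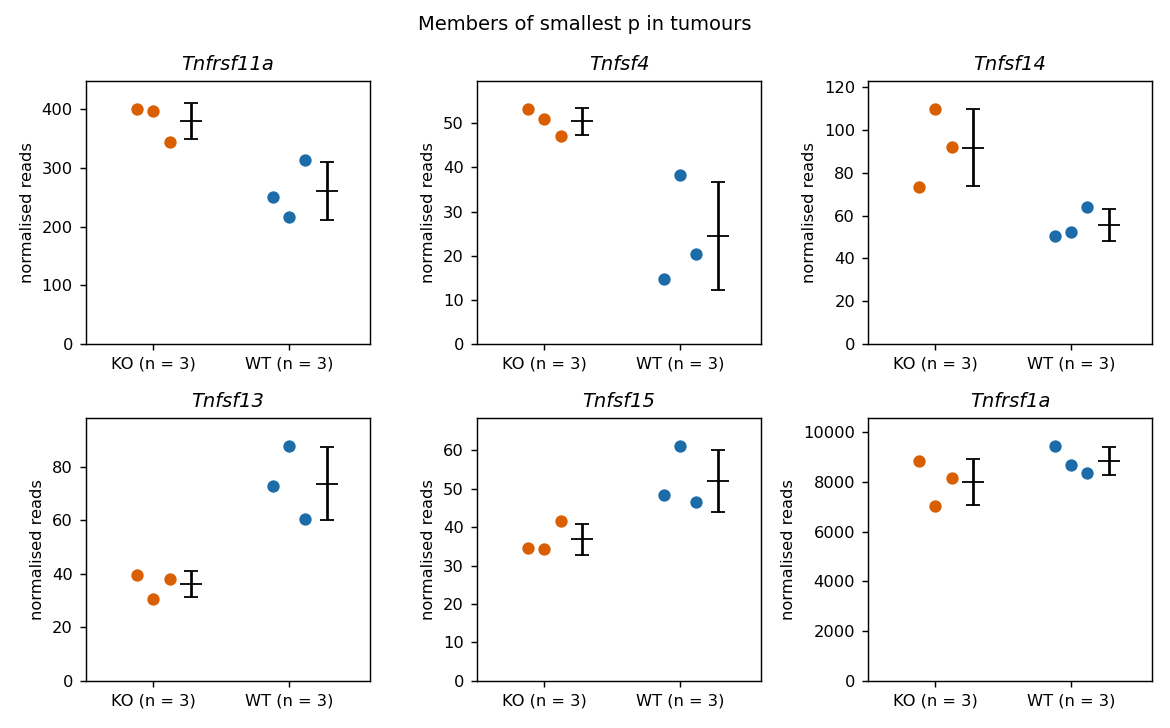
Normalised reads in each E0771 tumour for the 3 members of smallest p with higher averages in KO hosts (top) and the 3 with lower averages (bottom), KO (orange) on the left and WT (blue) on the right. Black marks are the mean and SD, n = 3 each, and every axis starts at 0. KO and WT overlap for Tnfrsf1a and for none of the other 5, and no member passed the adjusted threshold. Of the 25 members tested, 4 were higher and 2 lower without overlap, where 5.68% and 4.92% of all genes were.

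Markers of T cells, mast cells, dendritic cells and macrophages included genes with an unadjusted p under 0.05 in the tumours. Over all genes tested by edgeR, 3.79% were higher and 3.11% lower at that threshold. KO replicate 2 held the highest T cell and mast cell sums, 9451 and 8682. KO replicates 1 and 3 had 4540 and 5536 for T cells, and 4918 and 2542 for mast cells. Of 6 T cell markers 5 were higher at an unadjusted p under 0.05 and 0 passed edgeR after adjustment, with sums of 4540 to 9451 for KO hosts, against 3683 to 4804 for WT hosts. Of 5 mast cell markers all 5 were higher unadjusted and 0 passed, with sums of 2542 to 8682 for KO hosts, against 732.3 to 1618 for WT hosts. Of 5 dendritic cell markers 1 was higher and 2 lower unadjusted, and 0 passed, with sums of 719.2 to 847.3 for KO hosts, against 939.5 to 1132 for WT hosts. Within that list Xcr1 averaged 97.5 ± 23.0 with KO hosts and 27.0 ± 5.3 with WT hosts (log2 fold change 1.84, edgeR adjusted p = 0.245), while Ccr7 averaged 328.7 ± 47.7 with KO hosts and 516.9 ± 29.6 with WT hosts (adjusted p = 0.455). Of 6 macrophage markers 2 were higher unadjusted and 0 passed, with sums of 25565 to 36049 for KO hosts, against 23800 to 27299 for WT hosts. The part of these cells in the values of Tnfsf4, Tnfsf13 and Tnfsf14 was not tested. Of superfamily genes with other symbols, 5 ligands and 6 receptors were tested in tumours by edgeR and none passed. Neither did any of the 30 adaptor and NF-kappaB genes by edgeR, where 0 of 30 had an unadjusted p under 0.05. Fasl and Cd27, which serve cytotoxic and memory T cells, had unadjusted p of 0.0269 and 0.0445 and log2 fold changes of 0.71 and 0.49. Cd70 was too low to test and lay the other way, at 0 to 3.82 normalised reads with KO hosts and 6.9 to 16.7 with WT hosts.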

How the data were processed

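RNA was extracted with Trizol and made into stranded mRNA libraries with the Illumina TruSeq kit, per the labels' protocols. The tumour table deposited by the authors gives a raw read count for each gene symbol. Their fat table gives a signal, and its deposited values are counts scaled by 1 factor per library: 117220 of 117220 values above 0 were whole multiples of their library's step within 0.001 (100%). CASAVA, TopHat, DESeq2 and mm10 are named in the submitters' processing notes. The counting tool, annotation and strand setting are not given in the sources used here. Lines that name no gene held 66.7% to 72.2% of tumour entries and were left out.

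The quasi-likelihood test of edgeR 4.0.16 (R 4.3.3; TMM, filterByExpr) was used on the tumour counts of 13109 genes. For fat, limma-trend (limma 3.58.1) was run on log2(value + 1) of the 14455 genes that reached 10 in 3 or more libraries. DESeq2 1.42.0, edgeR on recovered fat reads, other pseudocounts, scalings and filters, a replicate block and fits without each library were alternatives. All tests were two-sided, KO minus WT, adjusted by Benjamini and Hochberg over all genes tested. Effects of both tissues were compared in 1 limma fit of 4 group means over 13 libraries. No 2 libraries of a group agreed within sampling noise (chi-square per degree of freedom 24.2 to 235). Pipelines were tested on simulated counts. Exon lengths and gene coordinates are from GENCODE M21.

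The members and lists were chosen with earlier results of these data known. Full statistics are given for every member past the threshold in fat and, since none passed in tumours, for the 3 members of smallest p in each direction there, and for other lists up to 4 genes that passed, with Tnf, Fas, Cd40 and Ltbr by name.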

Additional observations from a re-analysis of the deposited data

Results flagged for a closer look

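The effect of the KO label differed between fat and tumours for 4 of the 23 members tested in both tissues, where 18.7% of 12529 genes differed (limma on the difference of the KO minus WT effects, adjusted over all genes). The share of members was thus near that of all genes. Tnfsf13 differed by 2.37 on the log2 scale (adjusted p = 0.00321), Tnfsf12 by 1.85 (adjusted p = 0.00127), Tnfrsf11a by 1.80 (adjusted p = 0.0115) and Tnfrsf1b by 1.46 (adjusted p = 0.0168), all more positive in fat. For Tnfsf13 every library lay on the higher side in KO fat and on the lower side in tumours of KO hosts. Fat and tumours were normalised separately, and a constant shift between them cancels in this difference.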

How the results depend on the processing

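In fat, 133 of 135 values of tested members under other pseudocounts, filters, scalings or edgeR on recovered reads kept direction and side of the threshold. The exceptions were Tnfrsf11b and Tnfrsf26, which passed in edgeR, so that members lower in KO counted 1 there. Without 1 library at a time, 5 to 7 members were higher and 0 to 2 lower, and over all genes 1575 to 2691 were higher and 1490 to 2567 lower, the smallest counts without WT column 3. In tumours, DESeq2 called 47 genes higher and 12 lower and edgeR without a filter 21 and 1, and leaving out 1 library gave 0 to 10 higher and 0 to 11 lower. Members called in tumours stayed at 0 in each of these, and the cause of the other changes was not tested. With the replicate block the tumours gave 0 genes higher and 0 lower. The same replicate numbers did not pair the tumours (correlations of deviations -0.218, 0.012 and -0.22), and no paired analysis was possible in fat because the WT columns carry other numbers than the labels.

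Some members that did not pass changed sign when 1 library was left out, with these ranges of the log2 fold change. In fat they were Tnfsf14 (-0.10 to 0.42), Tnfsf15 (-0.071 to 0.26), Tnfsf18 (-0.046 to 1.67), Tnfrsf13c (-0.25 to 0.82), Tnfrsf14 (-0.15 to 0.35), Tnfrsf17 (-0.10 to 0.23), Tnfrsf1a (-0.025 to 0.21) and Tnfrsf21 (-0.15 to 0.49). In tumours they were Tnfsf8 (-0.40 to 0.043), Tnfsf9 (-0.060 to 0.26), Tnfrsf13b (-0.11 to 0.52), Tnfrsf13c (-0.20 to 0.59), Tnfrsf14 (-0.10 to 0.21), Tnfrsf1b (-0.056 to 0.10), Tnfrsf21 (-0.048 to 0.21), Tnfrsf23 (-0.075 to 0.11) and Tnfrsf25 (-0.52 to 0.56). Few reads limit Tnfsf4, Tnfsf11 and Tnfsf18 in fat and Tnfrsf11b, Tnfrsf17, Tnfrsf19 and Tnfsf18 in tumours.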
